A study of Mus musculus with 16 samples.

Results

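The 10 genes described here carry out or control de novo lipogenesis, the making of fatty acids from acetyl units. They were chosen by name: Mlxipl, Srebf1, Acly, Acaca, Acacb, Fasn, Elovl6, Scd1, Thrsp and Pnpla3. Their probes were found through the accession of each probe and its gene symbol in RefSeq, and all 10 were among the 25790 features tested, of which 15248 carried a gene symbol. The liver turns surplus carbohydrate into fatty acids by this route. ATP citrate lyase releases cytosolic acetyl-CoA, the acetyl-CoA carboxylases turn it into malonyl-CoA, fatty acid synthase builds palmitate, and an elongase and a desaturase finish the chain. Insulin raises the pathway through SREBP-1c and glucose raises it through ChREBP, and both are transcription factors whose activity depends on more than their own mRNA.

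Liver RNA came from 16 male ApoE KO mice, which lack apolipoprotein E and develop high plasma cholesterol, with a labelled age of 8 weeks and a high-fat diet. One group of 8 received miR-185-inh, lentiviruses that encode an antisense inhibitor of the microRNA miR-185, and the other 8 received the control inhibitor ctrl-inh. Both groups therefore shared the genotype and the diet, and no mouse of the wild-type genotype or on another diet was analysed here. The labels place the harvest of the livers after 8 weeks. From each liver 0.5 µg of RNA was labelled with Cy3 and hybridised to its own 1-colour Agilent array. The labels do not give the cell type reached by the virus, and the level of mature miR-185 was not analysed here, so the inhibition itself was not checked.

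All 8 ctrl-inh arrays lay on slide 1 with scan 1 and all 8 miR-185-inh arrays on slide 2 with scan 2, so the treatment, the slide and the scan cannot be told apart. Each slide held 2 rows of 4 arrays, and the lower mouse numbers lay in row 1 on both. Well above background were 58.7% to 74.8% of the spots of an array, and any pair of arrays correlated at 0.984 to 0.996 over features. The number of arrays limits the precision. The labels number the mice without saying that they were housed or treated separately, so a p-value reflects only how these livers vary, which may be technical. The 6 hepatocyte markers were well above background on all 16 arrays, with a summed log2 level of 7.93 to 8.46 in ctrl-inh and 7.84 to 8.29 in miR-185-inh. Of the 6 adipocyte markers 4 were tested and none passed limma's adjusted threshold, with summed log2 levels of 0.86 to 2.28 and 0.96 to 3.28. Adipocytes also express lipogenic genes, and the part of such cells in the values below was not tested. Of 6 neutrophil markers 2 were lower in miR-185-inh past the threshold, the only calls in 9 cell type lists.

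Sequences just before 5 of the RefSeq gene starts are shown because they carry the matches named in the comparison of promoters, that is the E-box and the sterol regulatory element of Mlxipl, the GC boxes of Acly and the repeated Y-boxes of Fasn and Thrsp. Each runs 5′ to 3′ over 250 bases up to the start, in RefSeq coordinates of GRCm38.p6, and capitals mark the matches found. The Mlxipl starts lie after chr5:135089640-135089889 (start 1) and chr5:135106641-135106890 (start 2) on the plus strand, the Acly start after chr11:100528001-100528250 on the minus strand, the Fasn start after chr11:120824548-120824797 on the minus strand and the Thrsp start after chr7:97417551-97417800 on the minus strand.
Mlxipl start 1: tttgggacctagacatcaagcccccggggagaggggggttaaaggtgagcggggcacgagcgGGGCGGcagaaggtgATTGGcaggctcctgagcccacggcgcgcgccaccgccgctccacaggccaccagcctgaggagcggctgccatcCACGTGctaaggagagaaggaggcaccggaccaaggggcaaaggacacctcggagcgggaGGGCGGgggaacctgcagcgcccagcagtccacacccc
Mlxipl start 2: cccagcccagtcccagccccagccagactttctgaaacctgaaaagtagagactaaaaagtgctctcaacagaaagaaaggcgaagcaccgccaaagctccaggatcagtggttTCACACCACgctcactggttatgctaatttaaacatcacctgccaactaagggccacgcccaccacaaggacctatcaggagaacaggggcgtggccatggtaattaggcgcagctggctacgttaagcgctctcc
Acly: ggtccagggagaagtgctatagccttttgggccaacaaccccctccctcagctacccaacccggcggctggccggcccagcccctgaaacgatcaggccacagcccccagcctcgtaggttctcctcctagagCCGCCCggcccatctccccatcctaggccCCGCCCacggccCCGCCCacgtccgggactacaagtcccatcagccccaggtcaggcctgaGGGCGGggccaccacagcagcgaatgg
Fasn: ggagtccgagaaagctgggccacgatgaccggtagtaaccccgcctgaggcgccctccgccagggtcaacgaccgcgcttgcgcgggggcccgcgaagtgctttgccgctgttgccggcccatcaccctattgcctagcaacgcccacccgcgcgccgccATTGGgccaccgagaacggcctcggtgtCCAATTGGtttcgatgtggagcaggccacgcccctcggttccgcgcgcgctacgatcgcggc
Thrsp: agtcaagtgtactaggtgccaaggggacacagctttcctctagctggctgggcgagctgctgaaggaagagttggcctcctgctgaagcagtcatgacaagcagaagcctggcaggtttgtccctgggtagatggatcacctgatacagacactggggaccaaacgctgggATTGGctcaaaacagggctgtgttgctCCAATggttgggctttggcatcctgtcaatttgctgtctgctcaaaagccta

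Of the 10 genes 9 had an entry in the table, with 12 starts in all, 3 of them for Srebf1 and 2 for Mlxipl. Motifs were searched on both strands. The Y-box CCAAT, the letters bound by NF-Y, was found before 6 of the 9 genes, in 7 of their 12 windows. Its share was 33.8% of 32851 mouse promoter windows of the same length. Fasn held 3 matches, of which the 2 nearest the start overlap by 2 bases at their ends, and Thrsp held 2. The GC box GGGCGG, bound by Sp1, was found before 4 genes, in 5 of the 12 windows, and in 32.7% of all windows. It had 4 matches before Acly and 2 before Mlxipl start 1. The E-box CACGTG, of the kind bound by ChREBP and other basic helix-loop-helix factors, was found in 6.02% of windows and, among these genes, before Mlxipl start 1 only, where its first base lies at position -98 from the start. The sterol regulatory element TCACNCCAC was found in 1.05% of windows and before Mlxipl start 2 only, as TCACACCAC with its first base at position -136. The direct repeat of the liver X receptor (consensus half-sites with a spacer of 4 bases) was found in 0.0152% of windows and in none of the 12. A match describes the letters in this window and is not a binding site.

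No lipogenic gene differed between miR-185-inh and ctrl-inh past an adjusted p of 0.05 (0 of 10, limma with Benjamini-Hochberg adjustment over 25790 features, with 1 at an unadjusted p under 0.05). Over all features tested the share called was 4.71%, with 1.24% higher and 3.47% lower in miR-185-inh, and 20.2% were at an unadjusted p under 0.05. That split depended on the background correction and the scaling: of the calls over all features 320 of 1215 were higher here, 558 of 1166 with normexp on the median spot signal, 396 of 853 with quantile normalization and 310 of 1812 with the 75th percentile taken over probes detected on all arrays. All 10 genes were well above background on all 16 arrays and none was saturated. The differences of the group means ran from Fasn at -0.27 to Srebf1 at 0.23 on the log2 scale. The median difference was -0.044, against -0.033 over all features, whose middle 50% ran from -0.16 to 0.074. Below zero were 6 of the 10 genes and 58.0% of all features. In whole liver, fewer cells of a type and less RNA per cell cannot be told apart. Levels are log2 of the processed intensity minus the 75th percentile of the array, so that 0 is that percentile, and differences are miR-185-inh minus ctrl-inh.

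**Figure D1:**
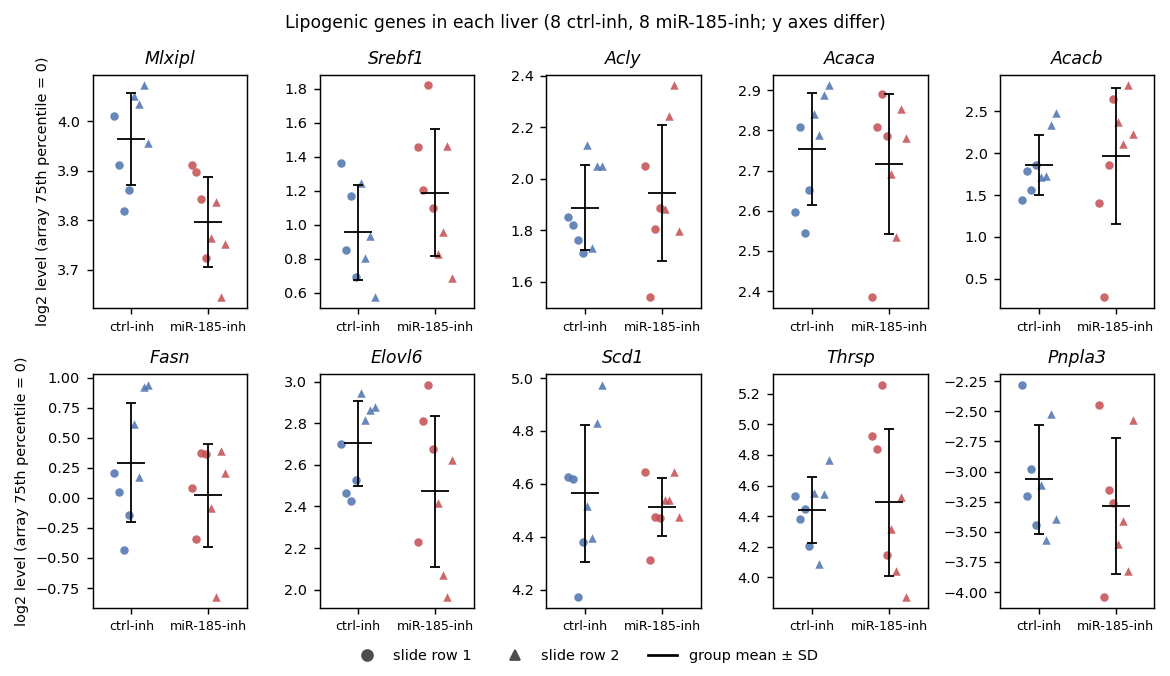
Log2 level of each lipogenic gene (vertical axis, relative to the 75th percentile of the array) in 8 ctrl-inh (blue) and 8 miR-185-inh (red) livers; circles are slide row 1, triangles slide row 2, and bars the group mean ± SD. The groups overlap for all 10 genes (they do not for 0.857% of all features), and Mlxipl has the clearest offset, with all 8 miR-185-inh values below the ctrl-inh mean of 3.96.

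Mlxipl encodes ChREBP, the carbohydrate-responsive transcription factor of lipogenic and glycolytic genes. Its log2 level ran from 3.82 through a median of 3.98 to 4.07 in ctrl-inh and from 3.64 through 3.80 to 3.91 in miR-185-inh. All 8 miR-185-inh livers lay below the ctrl-inh mean and 4 of them below the lowest ctrl-inh liver, while the other 4 lay within the ctrl-inh range. The means were 3.96 ± 0.094 and 3.80 ± 0.091 (SD, n = 8 each), a difference of -0.17 (SE 0.057, 95% interval -0.29 to -0.047) or a fold of 0.890. The adjusted p of limma was 0.100 and the exact two-sided permutation p 0.00373, and 9.25% of all features had a p as small or smaller. The call depended on the background correction and the scaling: the adjusted p of limma was 0.0190 with normexp on the median spot signal (difference -0.26) and 0.0406 with the 75th percentile taken over probes detected on all arrays (difference -0.19).

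Srebf1 encodes SREBP-1, whose SREBP-1c form drives the fatty acid synthesis genes; the probe was not assigned to either form. Its log2 level ran from 0.57 through 0.89 to 1.37 in ctrl-inh and from 0.69 through 1.15 to 1.82 in miR-185-inh. Above the highest ctrl-inh liver lay 3 miR-185-inh livers, and the rest lay within the ctrl-inh range. The means were 0.96 ± 0.28 and 1.19 ± 0.38, a difference of 0.23 (SE 0.16, 95% interval -0.093 to 0.56, adjusted p of limma 0.430, exact permutation p 0.180). It was the largest positive difference of the 10 and smaller than the SD of either group, and without miR-185-inh mouse 6 it was 0.14.

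Acly encodes ATP citrate lyase, the source of cytosolic acetyl-CoA. Its log2 level ran from 1.71 through 1.84 to 2.13 in ctrl-inh and from 1.54 through 1.88 to 2.36 in miR-185-inh, so the ctrl-inh range lay inside the other. The difference was 0.058 (SE 0.11, 95% interval -0.17 to 0.28, limma adjusted p 0.815). A further Acly probe gave 0.088 and followed the one used at r = 0.91 across the 16 arrays.

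Acaca and Acacb encode the acetyl-CoA carboxylases, the cytosolic enzyme that feeds fatty acid synthesis and the mitochondrial one whose malonyl-CoA restrains fatty acid oxidation. The log2 level of Acaca ran from 2.55 through 2.80 to 2.91 in ctrl-inh and from 2.38 through 2.78 to 2.89 in miR-185-inh. These ranges nearly coincided, and the difference was -0.038 (95% interval -0.21 to 0.13, limma adjusted p 0.843). Acacb ran from 1.45 through 1.76 to 2.48 in ctrl-inh and from 0.28 through 2.17 to 2.81 in miR-185-inh. One miR-185-inh liver, mouse 3, held the lowest Acacb level of all 16, and without it the difference moved from 0.10 (95% interval -0.51 to 0.71, limma adjusted p 0.884) to 0.34. A second Acacb probe, which followed the first at r = 0.94, gave -0.14, so even the sign of the Acacb difference was not settled. Of the other Acaca probes, one gave -0.093 with r = 0.61 to the probe used, and one gave 0.20 with r = 0.066 and was well above background on 6 of 8 ctrl-inh arrays.

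Fasn encodes fatty acid synthase, which builds palmitate from malonyl-CoA. Its log2 level ran from -0.43 through 0.19 to 0.94 in ctrl-inh and from -0.83 through 0.15 to 0.39 in miR-185-inh. The medians were close, and the distance between the means came from ctrl-inh livers 8, 11 and 12, which lay above the highest miR-185-inh liver, and from miR-185-inh liver 9, which lay below every other. The means were 0.29 ± 0.49 and 0.021 ± 0.43, a difference of -0.27 (SE 0.21, 95% interval -0.72 to 0.18, limma adjusted p 0.515) or a fold of 0.828. Without miR-185-inh mouse 9 the difference was -0.15. The lower end of that interval is a fold of 0.606, so these arrays excluded neither a fall of that size nor no change.

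Elovl6 encodes the elongase that extends palmitate to stearate. Its log2 level ran from 2.43 through 2.76 to 2.94 in ctrl-inh and from 1.96 through 2.52 to 2.98 in miR-185-inh. Below the lowest ctrl-inh liver lay 4 miR-185-inh livers, while mouse 6 of that group held the highest level of all. The difference was -0.23 (SE 0.14, 95% interval -0.52 to 0.063, limma adjusted p 0.379, exact permutation p 0.140). Scd1 encodes stearoyl-CoA desaturase, which makes oleate. Its levels ran from 4.17 through 4.57 to 4.97 in ctrl-inh and from 4.31 through 4.51 to 4.65 in miR-185-inh, so here the miR-185-inh range lay inside the other. The Scd1 difference was -0.051 (95% interval -0.26 to 0.16, limma adjusted p 0.822).

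Thrsp encodes Spot 14, a thyroid hormone-responsive protein that supports lipogenesis. Its log2 level ran from 4.08 through 4.49 to 4.77 in ctrl-inh and from 3.87 through 4.42 to 5.26 in miR-185-inh. The miR-185-inh livers lay on both sides of the ctrl-inh range, with mice 1, 3 and 6 above it and mice 9 and 12 below. The difference was 0.050 (95% interval -0.32 to 0.42, limma adjusted p 0.906). Pnpla3 encodes a lipid droplet protein with lipase and acyltransferase activity that follows SREBP-1c and feeding in mouse liver. Its levels ran from -3.56 through -3.16 to -2.28 in ctrl-inh and from -4.04 through -3.33 to -2.45 in miR-185-inh. The Pnpla3 difference was -0.22 (95% interval -0.72 to 0.27, limma adjusted p 0.647), or -0.34 without miR-185-inh mouse 1 and -0.11 without ctrl-inh mouse 1, and a second, dimmer probe gave -0.10 with r = 0.31 to the first.

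The spread among livers of a group was also compared, by an exact permutation test of the ratio of SDs over all 6435 splits of the group-centred values, a test chosen after the values had been seen. The SD was larger in miR-185-inh for 7 of the 10 genes, and no ratio passed after adjustment over the 10. Thrsp had an SD of 0.48 against 0.22, a ratio of 2.24 (exact permutation p 0.0274, adjusted 0.253). For Scd1 the SD was smaller in miR-185-inh, 0.11 against 0.26, a ratio of 0.420 (exact permutation p 0.0760, adjusted 0.253). Among all features ranked by their SD within groups, Acacb stood at percentile 97.1, Pnpla3 at 93.8 and Fasn at 91.4, whereas Mlxipl stood at 3.24.

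The difference between groups was next taken within each slide row, 4 livers against 4. For 6 of the 10 genes the sign was not the same in both rows: Acaca, Acacb, Fasn, Elovl6, Scd1 and Thrsp. Elovl6 was the clearest case, with a difference of 0.14 in row 1 and -0.61 in row 2. In row 2 its ctrl-inh livers lay between 2.82 and 2.94 and its miR-185-inh livers between 1.96 and 2.62, without overlap, while in row 1 the ranges overlapped. Groups without overlap in row 2 were found for 2 of the 10 genes, Elovl6 and Mlxipl, and for 13.9% of all features, and in row 1 for 0 of the 10 and 11.6% of features. The row 2 value taken alone had an adjusted p of 0.0738 (limma). The change between rows was -0.75 (SE 0.22) and did not pass (limma interaction, adjusted p 0.128).

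The Fasn difference was 0.20 in row 1 and -0.74 in row 2, and the Thrsp difference 0.40 and -0.30. Mlxipl was lower in miR-185-inh in both rows, at -0.057 and -0.28, and in row 2 its groups did not overlap, with ctrl-inh at 3.96 to 4.07 and miR-185-inh at 3.64 to 3.84. The interaction of row and treatment was called for 0 of the 10 genes and for 0.372% of all features (limma, adjusted p). At an unadjusted p under 0.05 were 4 of the 10, namely Elovl6, Fasn, Thrsp and Mlxipl, against 14.8% of features. The adjusted p values of the latter 3 were 0.233, 0.283 and 0.324.

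Livers of one treatment also differed between rows. Within ctrl-inh, row 2 against row 1 gave 4.65% of features past the adjusted threshold of limma, a share close to that of the treatment itself, and among the 10 genes Elovl6 passed, higher by 0.34 in row 2 (adjusted p 0.0458). Fasn was higher by 0.74 there with an adjusted p of 0.0697, and its row 1 livers lay between -0.43 and 0.21 and its row 2 livers between 0.18 and 0.94. Within miR-185-inh the same comparison called no feature (0%), with Thrsp at -0.60, Elovl6 at -0.41 and Acacb at 0.83. Rows hold different mice as well as different positions, and these cannot be told apart.

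**Figure D2:**
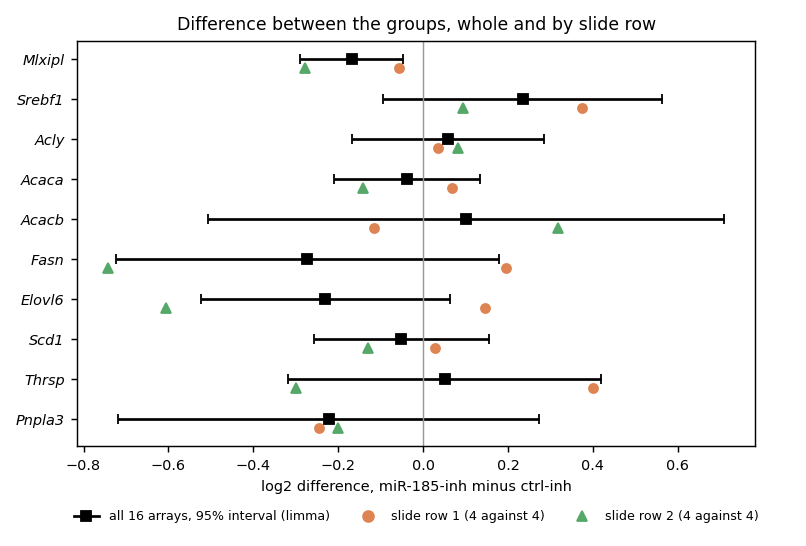
Log2 difference between miR-185-inh and ctrl-inh (horizontal axis) for each lipogenic gene; black squares are all 16 arrays with the 95% interval of limma, orange circles slide row 1 and green triangles slide row 2, each 4 livers against 4. Only the Mlxipl interval leaves out 0, and Fasn, Elovl6 and Thrsp lie on opposite sides of 0 in the 2 rows.

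Whether the genes moved together from liver to liver was examined across the 16 arrays after each group's mean had been subtracted, so that the treatment and the slide could not make a correlation. Of the 45 pairs 33 had a positive Pearson's r, the median r was 0.20, and the median r between these genes and any feature was 0.064. No pair passed after Benjamini-Hochberg adjustment over the 45 (permutation within groups, 100000 resamples), and 7 were at an unadjusted p under 0.05. High values of r were not confined to these genes. The share of 25624 features with r above 0.5 ran from 2.89% for Pnpla3 to 16.95% for Acly. Fasn was the gene with positive r to all 9 others, from 0.11 to 0.67 with a median of 0.34, while Acacb was positive with 5 of 9.

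The strongest pair was Srebf1 and Thrsp, with r = 0.69 (permutation p 0.00819, adjusted 0.0846) and Spearman's rho of 0.64 (permutation p 0.0151, adjusted 0.173). Of all features, 0.859% had a higher r with Srebf1 and 4.03% a higher r with Thrsp than this pair. Without the 2 arrays farthest from the Srebf1 median r was 0.56, and without the 2 farthest from the Thrsp median, miR-185-inh mice 6 and 12, it was 0.42. The pair followed each other in miR-185-inh, at r = 0.89, and not in ctrl-inh, at r = 0.15, though the change in r between groups did not pass. In miR-185-inh the liver of mouse 6 was highest and that of mouse 12 lowest for both genes.

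Fasn and Scd1 had r = 0.67 (permutation p 0.00663, adjusted 0.0846) and rho = 0.61 (permutation p 0.0214, adjusted 0.193), and r = 0.71 without the 2 arrays farthest from the Fasn median but 0.45 without those farthest from the Scd1 median, ctrl-inh mice 3 and 12. In ctrl-inh r was 0.88, with mouse 3 lowest and mouse 12 highest for both genes, and in miR-185-inh it was 0.23. Acaca and Fasn, the genes of consecutive enzymes, had r = 0.65 and rho = 0.73 (permutation p 0.00226, adjusted 0.102), and r = 0.78 without the 2 arrays farthest from the Acaca median but 0.48 without those farthest from the Fasn median. Acly and Scd1 had r = 0.61 (permutation p 0.00180, adjusted 0.0810), rho = 0.66 (permutation p 0.00756, adjusted 0.170) and r = 0.67 without the 2 arrays farthest in either gene. With slide row also subtracted r was 0.61 for Srebf1 and Thrsp and 0.62 for Fasn and Scd1. It was 0.51 for Acaca and Fasn and 0.53 for Acly and Scd1, and again no pair of the 45 passed. Before that subtraction, 0.222% of all features had a higher r with Fasn and 0.656% a higher r with Scd1 than this pair. The shares were 1.34% and 0.363% for Acaca and Fasn, and 7.95% and 2.115% for Acly and Scd1.

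Srebf1 was also set against the enzyme genes that SREBP-1c is known to drive. Its r was 0.12 with Acly, 0.11 with Fasn, -0.12 with Scd1, -0.30 with Acacb, -0.081 with Acaca and 0.099 with Elovl6. The median over the other 9 genes was 0.11. With slide row subtracted r was 0.51 with Acly (permutation p 0.0800, adjusted 0.400) and 0.19 with Fasn. It was then 0.0082 with Scd1, -0.045 with Acacb, -0.013 with Acaca and -0.13 with Elovl6. Mlxipl had its highest r with Elovl6, 0.49, and its lowest with Acacb, -0.47. With slide row subtracted these were 0.10 and -0.64. Without the 2 arrays farthest from the Mlxipl median they were 0.22 and -0.50, and without the 2 farthest from the partner's median 0.45 and -0.22. Neither transcription factor gene passed with any partner on these values. With normexp background correction 2 pairs passed, Mlxipl with Elovl6 (r = 0.61) and Acly with Scd1 (r = 0.66), each at an adjusted permutation p of 0.0486. With quantile normalization no pair passed, and r was 0.56 for Mlxipl with Elovl6 and 0.42 for Acly with Scd1 (adjusted permutation p 0.268 and 0.323).

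**Figure D3:**
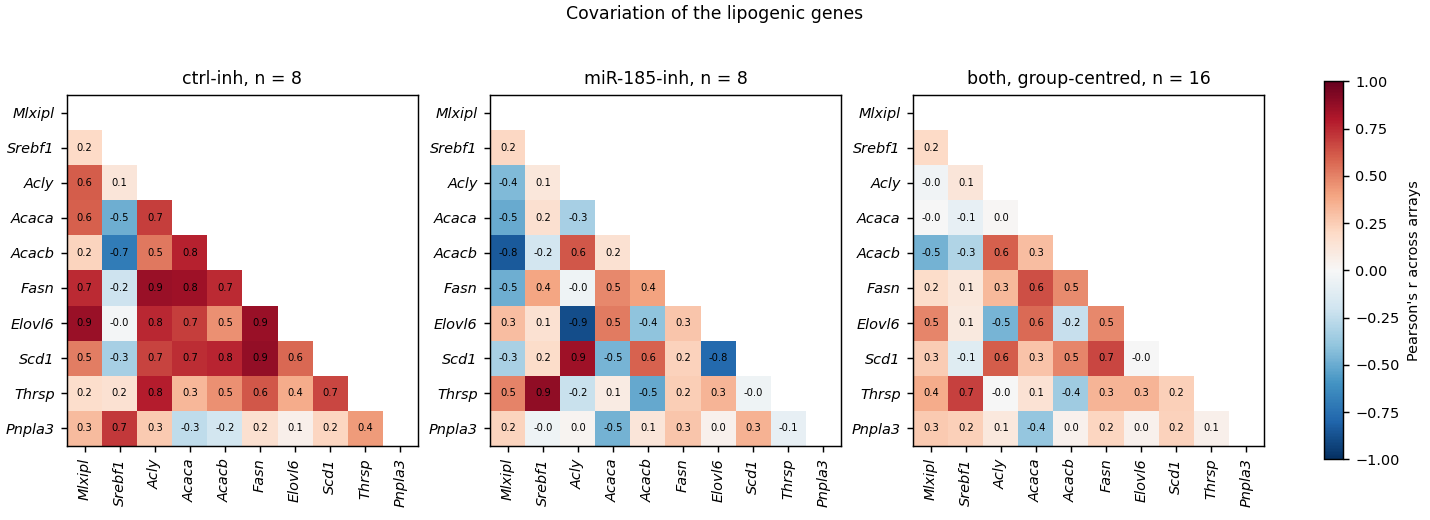
Pearson's r between each pair of lipogenic genes across 8 ctrl-inh arrays (left), 8 miR-185-inh arrays (middle) and all 16 arrays with group means subtracted (right); red is positive and blue negative. Positive r prevails in ctrl-inh, with a median of 0.51, and the signs are mixed in miR-185-inh, with a median of 0.12. The r with all features was not taken within each group.

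Within each group taken by itself the pattern of r was not the same. In ctrl-inh 38 of the 45 pairs were positive with a median r of 0.51, and in miR-185-inh 27 were positive with a median of 0.12. With slide row subtracted within each group the medians were 0.40 and 0.11. The r with all features was not taken within each group, so whether these medians are particular to the lipogenic genes was not tested. Among the 90 values of r within groups none passed after adjustment (exact permutation over 40320 pairings, lowest adjusted p 0.106).

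Acly and Elovl6 differed most. In ctrl-inh their r was 0.75, and the 3 livers with the highest Acly, mice 8, 11 and 12, were also the 3 with the highest Elovl6. In miR-185-inh it was -0.89, with mouse 10 at the highest Acly of 2.36 and the lowest Elovl6 of 1.96, and mouse 3 at the lowest Acly of 1.54 and an Elovl6 of 2.81. An exact permutation test of the change in r, chosen after these values had been seen, gave a p of 0.00124, or 0.0559 after adjustment over the 45 pairs. The opposed signs held with slide row subtracted, at 0.48 and -0.85. Elovl6 and Scd1 went from 0.57 to -0.77 (exact permutation p 0.00777, adjusted 0.117), and Mlxipl and Fasn from 0.75 to -0.49 (exact permutation p 0.0191, adjusted 0.201). For Mlxipl and Acacb r was 0.22 in ctrl-inh and -0.84 in miR-185-inh (exact permutation p of the change 0.0224, adjusted 0.201), but with slide row subtracted it was negative in both, at -0.38 and -0.77. No change in r passed after adjustment, and 6 were at an unadjusted p under 0.05.

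**Figure D4:**
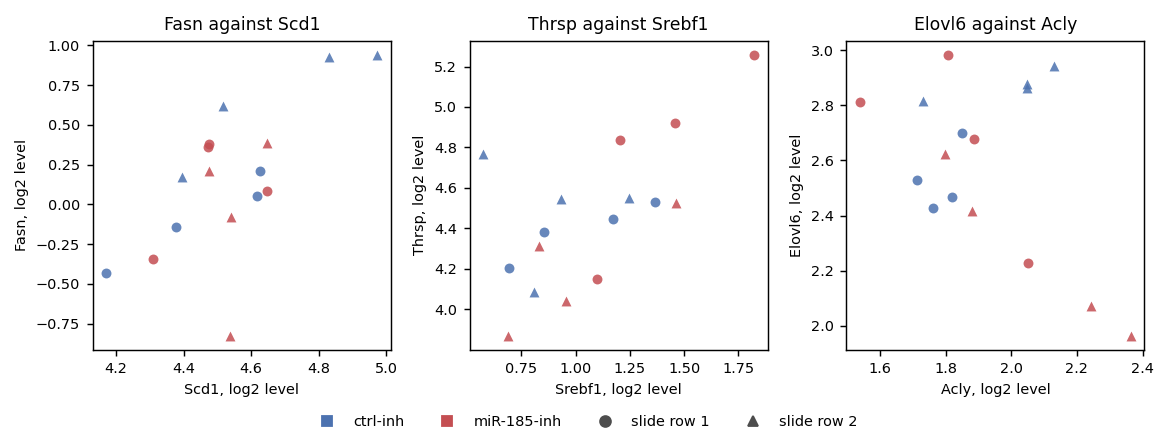
Log2 levels of 3 pairs of lipogenic genes in each liver: Fasn against Scd1, Thrsp against Srebf1 and Elovl6 against Acly, with ctrl-inh blue, miR-185-inh red, circles slide row 1 and triangles slide row 2. Fasn follows Scd1 in ctrl-inh (r = 0.88), Thrsp follows Srebf1 in miR-185-inh (r = 0.89), and Elovl6 goes up with Acly in ctrl-inh (r = 0.75) and down with it in miR-185-inh (r = -0.89).

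Features outside the pathway that carried a gene symbol were ranked by the same group-centred r, and features without a symbol were left out. By the median r over the 10 genes the highest was Jarid2 at 0.56, from -0.21 with one gene to 0.70 with another, followed by Aamp, ccdc198, Mthfd1, Smad5, Rpf2, G0s2, Cyb5r3, Bag6 and Pcx, at 0.48 down to 0.43. With slide row subtracted the value for Jarid2 was 0.25, and among these 10 Cyb5r3 was highest at 0.50. G0s2 encodes an inhibitor of the triglyceride lipase ATGL, and Pcx encodes pyruvate carboxylase, which supplies oxaloacetate for citrate. The feature most like Fasn was Angptl8, an insulin-responsive secreted protein gene, at r = 0.80, and the next was Aire at 0.79. With slide row subtracted the order was reversed, at 0.68 for Angptl8 and 0.83 for Aire. Those most like Mlxipl were Cyp3a57 at 0.93 and Olfr1383, for Srebf1 they were Map2k6 at 0.90 and Wwox, and for Thrsp Osbpl1a at 0.90 and Tmem50a. Scd1 was most like Abcb11, the bile salt export pump gene, at 0.85 and Rpl6, and Acly most like Fpgs at 0.88 and Zbtb7c. The other 8 were Icmt and Dnajc11 for Acaca, Zfhx2 and Glra4 for Acacb, Secisbp2 and Mtrf1l for Elovl6, and Ccdc17 and Efs for Pnpla3, at r of 0.82 to 0.92. These are the extremes of all features with a gene symbol over 16 arrays and are a description without a test.

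The genes around the pathway were then described from 9 lists, in all of which 0 members were called (limma, adjusted p over all features), against 4.71% of features. Among 14 regulators of SREBP and the liver X receptors the median difference was -0.081. At an unadjusted p under 0.05 (limma) were 3 of the 14, against 20.2% of all features. Each of the other related lists held 0 or 1 such gene. Mbtps2, which encodes the site-2 protease that releases active SREBP, was -0.25 (limma adjusted p 0.0617), with all 8 miR-185-inh livers below the ctrl-inh mean. Its probe was dim, with a mean log2 level of -3.77 in ctrl-inh and -4.02 in miR-185-inh, though well above background on all 8 arrays of each group. The Mbtps2 call changed with the setting: the adjusted p of limma was 0.0178 with the percentile over detected probes, 0.0467 with array weights and 0.0333 without miR-185-inh mouse 3, but 0.411 with quantile normalization (difference -0.13) and 0.329 with the mean of its probes (difference -0.14). Within slide row 1 the difference was -0.16. Insig2, which retains SREBP in the endoplasmic reticulum, was -0.32 (limma adjusted p 0.186). Single genes of this list ran from -0.41 to 0.40.

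Suppliers of precursors and NADPH (10 genes) had a median of -0.013, with Acss2, which makes acetyl-CoA from acetate, at 0.16 (limma adjusted p 0.476) and Pgd, a pentose phosphate enzyme gene, at -0.10 (0.524). The 10 glycolytic and ChREBP target genes had a median of -0.019. Slc2a2, the hepatic glucose transporter, was 0.22 (limma adjusted p 0.319) and Tkfc, which phosphorylates glyceraldehyde from fructose, was 0.11 (0.382). Other elongases, desaturases and activating enzymes (12 genes) had a median of -0.019 and 9 lay below zero. Elovl5, an elongase of polyunsaturated fatty acids, was -0.21 (limma adjusted p 0.122, or 0.0335 without miR-185-inh mouse 10) and Fads1, a desaturase of the same pathway, was -0.18 (0.259).

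Glycerolipid assembly genes (10) had a median of -0.050, with Agpat2 at -0.21 (limma adjusted p 0.146) and Plin2, a lipid droplet coat gene, at -0.10 (0.641). Modifiers of the lipogenic enzymes (10), such as AMP kinase subunits, had a median of 0.074 with 9 above zero. Among them Prkag2 was 0.13 (limma adjusted p 0.350) and Mid1ip1, which promotes polymerisation of acetyl-CoA carboxylase and is a relative of Thrsp, was 0.20 (0.421). Fasting response genes (10) had a median of -0.030, with Igfbp1, which insulin represses, at -0.54 (limma adjusted p 0.154) and Angptl4 at -0.16 (0.560). Insulin signalling genes (10) had a median of 0.038, with Foxo1 at 0.29 (limma adjusted p 0.0969, exact permutation p 0.00404) and Mtor at 0.13 (0.333).

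The SREBP-2 target genes (12), which serve cholesterol metabolism, had a median of -0.0072. Stard4, a sterol carrier gene, was 0.29 with all 8 miR-185-inh livers above the ctrl-inh mean (limma adjusted p 0.121, or 0.0386 with array weights). It was 0.059 with the mean of its probes (limma adjusted p 0.845), 0.59 within slide row 1 and -0.0037 within slide row 2. Srebf2, the paralogue of Srebf1 that drives this list, was -0.022 (limma adjusted p 0.962).

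**Figure D5:**
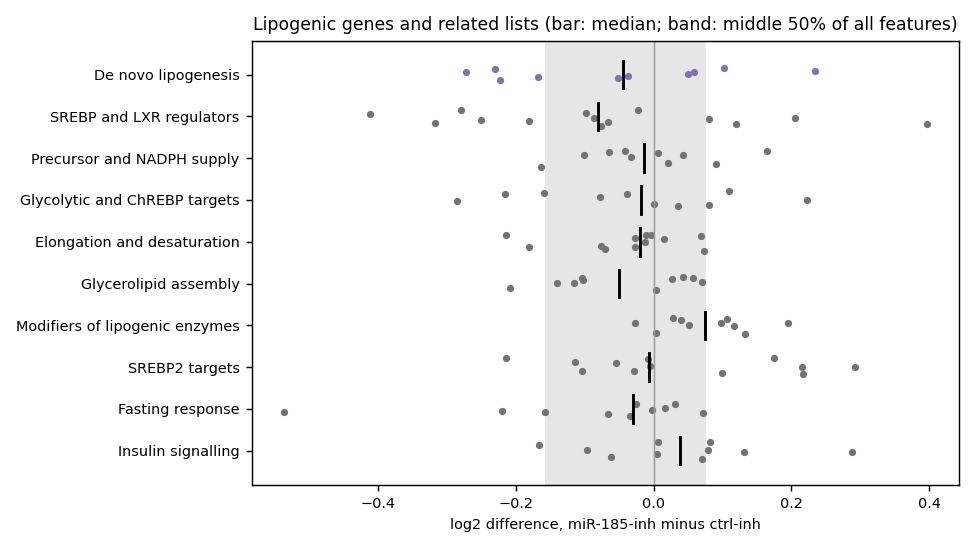
Log2 difference between miR-185-inh and ctrl-inh (horizontal axis) for the 10 lipogenic genes (purple) and the genes of 9 related lists (grey), with black bars at list medians and a grey band over the middle 50% of all features, -0.16 to 0.074. List medians lie between -0.081 and 0.074, and no gene shown passed limma's adjusted threshold.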

How the data were processed

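Liver RNA of 16 mice was measured on 1 array each. The members and the related lists were chosen with earlier results of these data known, and the text names the 10 members, from each list the 2 genes with the smallest p (or called ones), Foxo1 and Srebf2, and the features most like the members; 1 gene that this rule picks is not reported here. Per the file headers, the deposited scanner files hold intensity per spot, processed by Feature Extraction 11.5.1.1 with background subtraction, on a grid of build mm9; Agilent Feature Extraction 9.1 is the version in the submitters' processing notes. The authors' deposited value table holds log2 of the processed intensity minus 1 constant per array, with column medians of -1.30 to -1.22; the sources used here do not say how the constant was set.

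Here, log2 of the processed intensity minus the 75th percentile of each array was used. Control spots and outlier spots were left out, and a feature had to be well above background on 8 arrays or more of either group. The brightest probe stood for a gene. Names and promoter sequences came from RefSeq (GRCm38.p6), whose gene coordinates were not set against the array grid. The treatment effect was fitted by limma 3.58.1 (lmFit, eBayes, R 4.3.3) with Benjamini-Hochberg adjustment over 25790 features at 0.05, and single genes with an exact two-sided permutation test over 6435 splits. Correlations were tested by permutation, exact within groups. The scripts were tested on simulated data. The alternatives were other background corrections, scalings, filters, probe rules and models, slide rows, the authors' values and leaving out each array. Of the mouse numbers 5 occur in both groups; same-numbered livers correlated at -0.13 to 0.11 after group means were subtracted, so the numbers were not taken as pairs.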

Additional observations from a re-analysis of the deposited data

How the results depend on the processing

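The count of lipogenic genes past the threshold was 0 in the main analysis, 1 (Mlxipl) with normexp, run on the median spot signal, 1 (Mlxipl) with the percentile over probes detected on all arrays, and 0 under the other alternatives, including each array left out (0 to 0). Leaving out 1 array moved the median difference between -0.087 and -0.0039 and the count over all features between 735 and 1582. The latter was 0 within slide row 1, with 4609 at an unadjusted p under 0.05, and 466 within slide row 2 (limma). With the replicate block over shared mouse numbers it was 0, with 2598 at an unadjusted p under 0.05 (limma), and no lipogenic gene was called. Fewer arrays than the full set entered each of these fits, as the block used only livers whose mouse number occurs in both groups. Higher calls were 320 of 1215 in the main analysis, 558 of 1166 with normexp, 396 of 853 with quantile normalization and 310 of 1812 with the percentile over detected probes. With normexp 2 pairs covaried past the threshold, Mlxipl with Elovl6 (r = 0.61) and Acly with Scd1 (r = 0.66), each with a permutation p adjusted to 0.0486. With quantile normalization no pair did, and r was 0.56 for the first and 0.42 for the second (permutation p adjusted to 0.268 and 0.323). The causes were not tested.

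Differences that changed sign, none of them called, were these. With the mean of a gene's probes Acaca was 0.024 and Acacb -0.019, and with array weights Scd1 was 0.022 and Srebf2 0.029. With the replicate block Srebf1 was -0.0050, Acly -0.0022, Acacb -0.11 and Thrsp -0.079. Within slide row 1 Acaca was 0.067, Acacb -0.11, Fasn 0.20, Elovl6 0.14, Scd1 0.027, Srebf2 0.20 and Plin2 0.027. Within slide row 2 Thrsp was -0.30 and Stard4 -0.0037. Leaving out 1 array gave Acly -0.0013 to 0.12, Acaca -0.067 to 0.0097, Acacb -0.020 to 0.34, Scd1 -0.11 to 0.0073, Thrsp -0.059 to 0.14 and Srebf2 -0.11 to 0.050, and, with no change of sign, Srebf1 0.14 to 0.31, Fasn -0.38 to -0.15, Elovl6 -0.30 to -0.16 and Pnpla3 -0.34 to -0.11. The change between slide rows turned to -0.046 for Pnpla3 with normexp, 0.0018 for Scd1 with quantile normalization and 0.070 for Acaca with the mean of probes. Mlxipl was lower in miR-185-inh under all 29 alternatives, from -0.28 to -0.057. These are not independent checks, as many left out only 1 array. Mlxipl had 1 probe, well above background on all arrays, so the filters, probe rules and variance models could not change its difference.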
